A study of Rattus norvegicus with 81 samples.

Results

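Methyl paraben (MPB) was compared with triclosan (TCS) in the mammary gland of the pubertal female rat, through the 8 glands exposed to either chemical from postnatal day (PND) 42 to PND 62: 5 with MPB and 3 with TCS, of 81 arrays in the series. The 8 were chosen by their labels alone. A further 5 glands of rats given the vehicle, olive oil (OIL), over the same days served as the shared reference for each chemical. All 13 animals were female Sprague-Dawley rats, dosed daily by oral gavage by body weight and killed at PND 63, and RNA came from the 5th caudal mammary glands of the left and right side. The labels call the doses low without their amounts, and give neither the estrous cycle stage at death nor the litter of each rat, so p-values measure the spread between these glands. Each array carried a batch label, written here as batch 1 or batch 2. MPB and OIL each held 3 glands of batch 1 and 2 of batch 2, and all 3 TCS glands were of batch 1.

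The pubertal mammary gland is a tree of epithelial ducts growing into a pad of fat. Estrogen, progesterone and prolactin drive that growth, and prolactin acts through the transcription factor STAT5A, which is needed for alveoli to form. Methyl paraben, a preservative, is the methyl ester of hydroxybenzoic acid and a weak estrogen receptor ligand in cell assays. Triclosan, an antibacterial agent, is a chlorinated phenoxyphenol known for lowering thyroid hormone in rats. Bulk tissue also carries the transcripts of fat, lymph node and any muscle cut with the gland, and fewer cells of a type cannot be told apart from less RNA per cell.

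Values were deposited log2 expression values per transcript cluster, the set of probes that reads a gene, for 18166 named genes. Pairwise correlations between the 13 arrays lay between 0.9627 and 0.9954. The labelled tissue was checked on its markers: Krt8 and Krt18, keratins of the luminal epithelium, ranged over 8.92 to 9.97 and 9.40 to 10.41, and Adipoq, the fat cell hormone adiponectin, over 11.83 to 12.91. MPB glands 1, 3 and 4 stood apart from the other arrays. On the first principal component, which held 34.9% of the variance, they scored -33.57, -21.06 and -36.75, against 16.98 and 15.26 for MPB glands 2 and 5, -2.563 to 17.69 for TCS glands and -1.837 to 15.76 for OIL glands. Glands 1 and 3 are of batch 1 and gland 4 of batch 2. Mean batch differences were subtracted before the components were computed, so these scores cannot show whether arrays split by batch. The gene lists and the counts of genes are therefore given with and without these 3 glands together. The 3 were picked from these values, and without them only MPB glands 2 and 5 remain, 1 of each batch. Counts by p-value can then fall through the fewer glands alone.

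**Figure D1:**
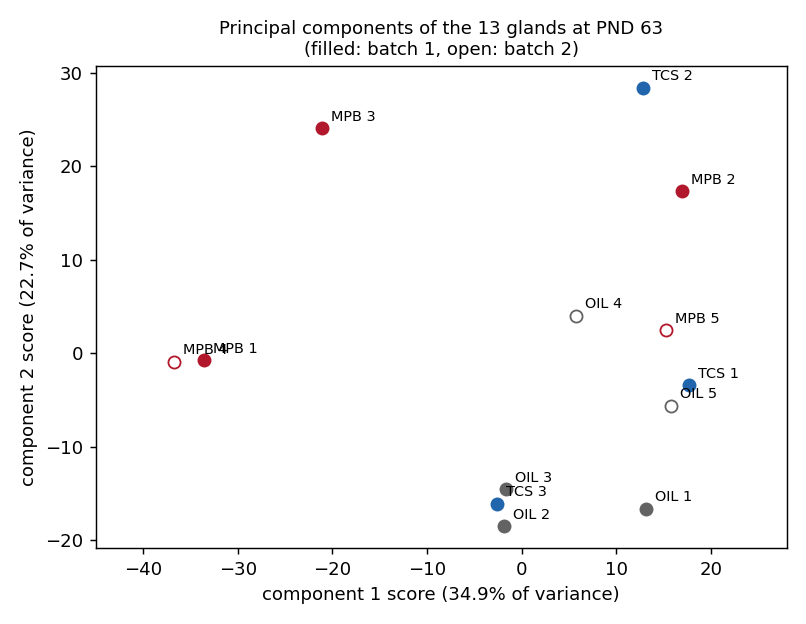
Scores of the 13 glands on the first (x axis) and second (y axis) principal component of the log2 values, in arbitrary units. Mean batch differences were subtracted before the components were computed. Filled points are batch 1 and open points batch 2. MPB glands 1, 3 and 4 lie between -36.75 and -21.06 on the x axis, and the other 10 glands between -2.563 and 17.69.

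No gene differed between MPB and TCS glands at an adjusted p of 0.05. In limma's fit on the 13 arrays with batch as a term, the smallest adjusted p was 0.45. At an unadjusted p under 0.05, 1083 genes were higher in MPB (5.96% of those tested) and 881 lower (4.85%). With batch 1 glands alone, 3 against 3, the counts were 1122 and 914 and 0 passed the adjustment. The median gene differed by -0.03 on the log2 scale, and 44% of genes lay above 0 and 56% below. A fitted difference can depart from that of the plain group means, since the fit compares within a batch and TCS had no batch 2 gland. The 95% confidence interval of a gene's difference reached a median of 0.272 to either side, and for 95.3% of genes it lay wholly within 1 log2 unit of 0. Without MPB glands 1, 3 and 4, which leaves MPB glands 2 and 5, 105 genes were higher and 250 lower at an unadjusted p under 0.05. Of these, 0 passed. Each chemical set against the same OIL glands gave 1 gene past the threshold for MPB (0.0055%) and 0 for TCS. Leaving out MPB gland 2 raised the count for MPB against OIL to 861, 532 higher and 329 lower, leaving out OIL gland 4 gave 8 and leaving out MPB gland 4 gave 2. At an unadjusted p under 0.05, MPB against OIL held 1600 higher (8.81%) and 1641 lower genes (9.03%), and TCS against OIL held 240 (1.32%) and 307 (1.69%). Of all genes, 44.7% lay above 0 and 55.3% below for MPB against OIL, and 49.7% above and 50.3% below for TCS against OIL.

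Leaving out MPB gland 2, whose muscle markers were the highest of its group, let 8 genes pass. Of these, 4 were higher in MPB: Ebna1bp2 and Mrps18b, of nucleolar and mitochondrial ribosome assembly, Wnt4, a progesterone-induced signal for duct branching, and Kctd14. All 4 read highest in MPB glands 1, 3 and 4. The other 4 genes were the skeletal muscle genes Ckm, Myl1, Tnnc2 and Ttn, lower in MPB. Wnt4 stood at 9.20, 8.21, 9.10, 8.83 and 8.47 in MPB glands, against 8.31, 8.02 and 8.29 in TCS glands and 8.55, 8.67, 8.37, 8.30 and 8.09 in OIL glands. Its difference over all 13 arrays was 0.66 ± 0.20 (SE) (adjusted p = 0.45), and 0.90 without that gland (adjusted p = 0.046). These 8 genes were singled out after their values were seen.

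Among the genes with the smallest p above 0 were the prolactin signal transducer Stat5a, the general transcription factor Tbp, which places RNA polymerase at the start site, and Mdh2, an enzyme of the mitochondrial citrate cycle. Stat5a stood at 10.67, 9.93, 10.45, 10.38 and 9.94 in MPB glands, against 9.72, 9.67 and 9.75 in TCS glands and 9.99, 9.88, 9.69, 9.65 and 9.56 in OIL glands. Every MPB gland lay above every TCS gland, as for 1.63% of all genes, and glands 1, 3 and 4 were the 3 highest. Its difference was 0.65 ± 0.16 (SE) (adjusted p = 0.45), with 0.52 for MPB and -0.13 for TCS against OIL. Tbp stood at 9.81, 9.55, 9.73, 9.93 and 9.59 in MPB glands, against 9.32, 9.27 and 9.35 in TCS glands and 9.40, 9.32, 9.38, 9.28 and 9.29 in OIL glands, again without overlap, with a difference of 0.41 ± 0.10 (SE) (adjusted p = 0.45). Mdh2 stood at 11.52, 11.01, 11.46, 10.90 and 10.52 in MPB glands, against 10.57, 10.88 and 10.88 in TCS glands and 10.92, 10.99, 10.95, 10.26 and 10.27 in OIL glands. Those groups overlapped, the 2 batch 2 glands of MPB and of OIL read lower than the batch 1 glands of their group, and the difference was 0.57 ± 0.14 (SE) (adjusted p = 0.45). The other 7 genes of smallest p in this direction were Timm10b, a mitochondrial import chaperone, Lgr6, a receptor for R-spondins, Hs3st3b1, a heparan sulfate sulfotransferase, Thrsp, a lipogenic regulator, Rab5if, Rbmxl1 and the pseudogene Scgb1d2-ps1, with differences of 0.45 to 0.84.

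Chaperones of the endoplasmic reticulum and of the cytosol lay mostly above 0. Cells raise the first set when unfolded secretory proteins collect in the endoplasmic reticulum, through a promoter element called ERSE. Heat shock factors raise the second set through the heat shock element (HSE). Of the 15 measured genes of the endoplasmic reticulum list, 11 were higher in MPB and 4 lower, with 8 at an unadjusted p under 0.05, all higher, and a median difference of 0.27. Of the 11 heat shock chaperones, 10 were higher and 1 lower, with 4 higher and 1 lower at that level and a median of 0.25. None passed the adjustment. Without MPB glands 1, 3 and 4 the medians were 0.12 and 0.09, and 1 and 0 members had an unadjusted p under 0.05.

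Promoters are shown for genes of both lists, so that the response elements can be read beside the expression values. They run 250 bases before to 50 after the gene's start and come from RefSeq, build GRCr8. Both strands were searched. Capitals mark the ERSE in the first 3, CCAAT and CCACG with any 9 bases between them, and the HSE in the last 2, GAA, TTC and GAA with any 2 bases between neighbours.
Creld2 (chr7:121789134-121789433, + strand): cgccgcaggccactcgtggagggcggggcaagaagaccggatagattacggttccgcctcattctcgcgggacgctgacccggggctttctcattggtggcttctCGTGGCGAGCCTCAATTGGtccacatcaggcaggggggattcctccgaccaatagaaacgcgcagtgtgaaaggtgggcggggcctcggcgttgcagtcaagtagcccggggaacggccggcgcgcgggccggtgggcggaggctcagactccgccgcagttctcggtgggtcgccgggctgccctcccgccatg
Hsp90b1 (chr7:23012244-23012543, - strand): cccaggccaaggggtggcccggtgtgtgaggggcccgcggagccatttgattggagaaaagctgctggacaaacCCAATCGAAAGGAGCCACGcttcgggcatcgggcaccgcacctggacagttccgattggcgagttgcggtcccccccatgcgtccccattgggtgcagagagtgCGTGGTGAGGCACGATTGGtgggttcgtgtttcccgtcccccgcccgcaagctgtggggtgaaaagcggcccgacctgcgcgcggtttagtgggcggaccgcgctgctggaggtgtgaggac
Calr (chr19:40213117-40213416, + strand): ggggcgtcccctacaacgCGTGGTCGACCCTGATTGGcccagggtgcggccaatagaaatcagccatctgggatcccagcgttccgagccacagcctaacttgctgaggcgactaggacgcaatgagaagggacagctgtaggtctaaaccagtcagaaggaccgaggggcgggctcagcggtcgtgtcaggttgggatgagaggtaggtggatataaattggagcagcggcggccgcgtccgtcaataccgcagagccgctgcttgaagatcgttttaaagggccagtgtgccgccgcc
Hsph1 (chr12:10427118-10427417, + strand): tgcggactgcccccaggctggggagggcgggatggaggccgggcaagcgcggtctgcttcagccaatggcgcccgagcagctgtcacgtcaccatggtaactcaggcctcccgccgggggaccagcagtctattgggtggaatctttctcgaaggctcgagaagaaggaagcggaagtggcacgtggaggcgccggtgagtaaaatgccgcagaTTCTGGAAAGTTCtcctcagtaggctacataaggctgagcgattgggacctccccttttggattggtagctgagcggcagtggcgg
Hspe1 (chr9:64084077-64084376, + strand): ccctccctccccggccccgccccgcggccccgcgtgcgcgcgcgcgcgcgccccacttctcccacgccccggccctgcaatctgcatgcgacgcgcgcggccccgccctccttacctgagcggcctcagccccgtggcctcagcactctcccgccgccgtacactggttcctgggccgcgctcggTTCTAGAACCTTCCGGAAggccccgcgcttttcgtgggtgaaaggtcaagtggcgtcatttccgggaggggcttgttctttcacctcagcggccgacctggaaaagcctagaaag
The ERSE letters occurred in 5 of 14 promoters matched for the endoplasmic reticulum list (Hspa5, Hsp90b1, Creld2, Xbp1 and Calr) and in 21 of 27457 promoters in all (0.0765%). Hsp90b1 held the letters at 2 places, on opposite strands. Sdf2l1 and Pdia4, described below, were not among the 5. The HSE letters occurred in 6 of 11 heat shock promoters (Hsph1, Hspe1, Dnaja1, Hspd1, Hspa8 and Chordc1) and in 0.736% of all. The matches in Hspe1 on the 2 strands overlap each other. Both lists gather genes of responses that use these elements, so these shares cannot show what happened in these glands. The sterol regulatory element of the LDL receptor, the third motif searched, occurred in 0.102% of all promoters and in 0 of the 9 matched for the cholesterol synthesis list, which says only that these letters are not in these windows.

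Creld2, a disulfide isomerase partner whose promoter is printed above, stood at 9.11, 9.08, 9.44, 9.08 and 8.82 in MPB glands, against 8.75, 8.82 and 8.25 in TCS glands and 8.85, 8.38, 8.42, 8.51 and 8.69 in OIL glands. Every MPB gland lay above every TCS gland, gland 5 only just, and the difference was 0.54 ± 0.17 (SE) (adjusted p = 0.45). Calr encodes calreticulin, the calcium-binding lectin chaperone. It stood at 12.44, 12.04, 12.43, 12.43 and 12.22 in MPB glands, against 12.04, 11.87 and 11.88 in TCS glands and 12.15, 11.76, 11.86, 12.01 and 12.06 in OIL glands, with MPB gland 2 barely above the highest TCS gland, and a difference of 0.36 ± 0.12 (SE). Sdf2l1, an endoplasmic reticulum cochaperone, differed by 0.67 ± 0.22 (SE) and Pdia4, a disulfide isomerase, by 0.38 ± 0.13 (SE), and both overlapped between the groups. The chaperone Hsp90b1 differed by 0.28 ± 0.12 (SE), the transcription factor Xbp1 by 0.27 ± 0.12 (SE), and the central sensor chaperone Hspa5 by 0.26 ± 0.14 (SE). Ddit3, which promotes cell death, differed by -0.09 ± 0.09 (SE) and Trib3, its pseudokinase target, by -0.22 ± 0.10 (SE), and neither had an unadjusted p under 0.05. Against OIL the list's median was 0.14 for MPB and -0.00427 for TCS.

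Hsph1, a large chaperone that resets HSP70, stood at 9.58, 9.06, 9.57, 9.61 and 9.30 in MPB glands, against 9.02, 8.94 and 8.45 in TCS glands and 8.82, 8.38, 8.44, 8.54 and 8.83 in OIL glands. The MPB glands lay above all TCS and OIL glands, and the difference from TCS was 0.58 ± 0.18 (SE) (adjusted p = 0.45). Hspe1, the cochaperonin of the mitochondrial matrix, stood at 10.18, 9.62, 10.22, 10.79 and 10.07 in MPB glands, against 9.44, 9.59 and 9.21 in TCS glands and 9.34, 9.29, 9.39, 10.10 and 9.95 in OIL glands. It did not overlap between MPB and TCS either, and differed by 0.54 ± 0.18 (SE). Dnaja1, an HSP70 cochaperone, differed by 0.32 ± 0.10 (SE) and Hsp90ab1 by 0.22 ± 0.10 (SE). Hspa4l, an HSP110 relative, ran the other way, with 6.32, 7.40, 6.50, 6.35 and 7.58 in MPB glands, against 7.56, 7.51 and 7.40 in TCS glands and 7.29, 7.66, 7.64, 7.41 and 7.14 in OIL glands, and a difference of -0.66 ± 0.29 (SE). MPB glands 1, 3 and 4 were the 3 lowest of the 13, gland 2 lay just below the TCS glands and gland 5 above them. The list's median against OIL was 0.26 for MPB and 0.000846 for TCS.

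**Figure D2:**
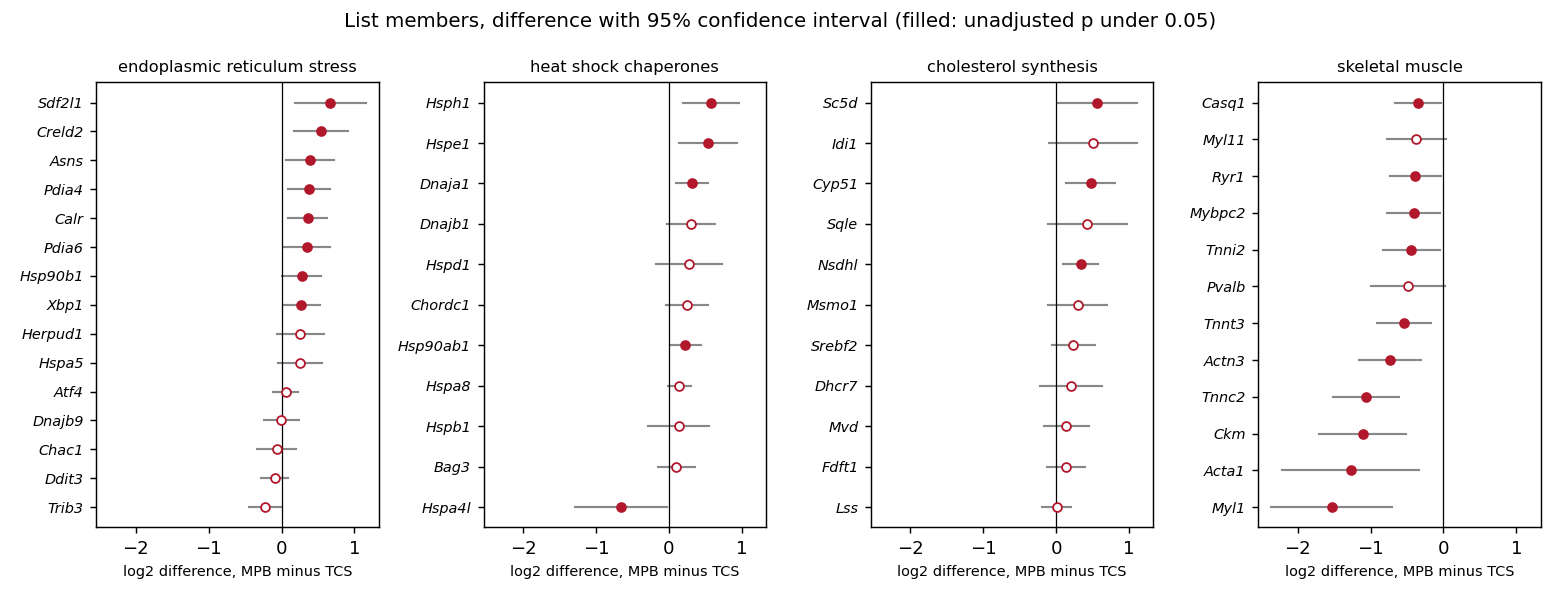
Log2 difference, MPB minus TCS (x axis), of every measured member of 4 gene lists, with its 95% confidence interval from the fit on 13 arrays; filled points have an unadjusted p under 0.05. Intervals of 8 endoplasmic reticulum genes lie above 0 and those of 10 skeletal muscle genes below 0, and no gene passed the adjusted threshold.

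Sterol and fatty acid synthesis genes were higher in MPB in most members. All 11 cholesterol synthesis genes measured lay above 0, with a median of 0.29 and 3 at an unadjusted p under 0.05: Nsdhl and Sc5d, which trim and desaturate the sterol ring, and Cyp51, the lanosterol demethylase. Cyp51 stood at 8.42, 8.17, 8.57, 9.16 and 8.50 in MPB glands, against 7.85, 8.11 and 7.71 in TCS glands and 7.93, 7.92, 8.01, 8.42 and 8.61 in OIL glands. It did not overlap between MPB and TCS, with a difference of 0.47 ± 0.15 (SE) (adjusted p = 0.45). MPB glands 1, 3 and 4 scored 0.28, 0.41 and 0.42 on the list, against 0.01 and -0.26 for glands 2 and 5, -0.16 to 0.01 for TCS glands and -0.15 to -0.03 for OIL glands. Without these 3 glands the median was -0.02, with 5 members above 0 and 6 below.

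Of the 15 fatty acid and triglyceride synthesis genes, 12 were higher in MPB and 3 lower, with a median of 0.19. Acly, which makes the cytosolic acetyl-CoA that feeds both pathways, stood at 11.57, 11.41, 11.50, 11.94 and 11.01 in MPB glands, against 10.97, 10.74 and 10.79 in TCS glands and 10.95, 10.93, 11.13, 10.93 and 10.88 in OIL glands. No MPB gland overlapped the TCS glands, and the difference was 0.68 ± 0.17 (SE) (adjusted p = 0.45). Thrsp, a thyroid hormone and carbohydrate responsive gene, stood at 12.69, 12.41, 12.42, 13.17 and 12.86 in MPB glands, against 12.15, 11.52 and 12.07 in TCS glands and 12.22, 12.26, 12.40, 12.71 and 12.82 in OIL glands, without overlap, and differed by 0.60 ± 0.15 (SE). Srebf1, the master regulator of this pathway, stood at 11.34, 9.98, 11.15, 11.40 and 9.27 in MPB glands, against 9.60, 9.69 and 10.06 in TCS glands and 9.87, 10.17, 10.06, 9.67 and 9.67 in OIL glands. It was highest in MPB glands 1, 3 and 4, lowest of all in MPB gland 5, and differed by 1.02 ± 0.42 (SE). Acacb, the acetyl-CoA carboxylase that restrains fatty acid oxidation, differed by -0.63 ± 0.29 (SE) in the opposite direction. Leaving out MPB glands 1, 3 and 4 gave a median of 0.22, with 14 of 15 members above 0 and 3 at an unadjusted p under 0.05, and leaving out TCS gland 2 alone gave 0.02. Against OIL the median was -0.14 for MPB and -0.25 for TCS, where all 15 members were below 0 and 2 had an unadjusted p under 0.05. The 18 white adipocyte markers, a cell type that makes these enzymes, had a median of 0.08 between MPB and TCS, -0.21 for MPB against OIL and -0.31 for TCS against OIL, and their part in the lipid values was not tested. Without MPB glands 1, 3 and 4 the marker median between MPB and TCS was 0.21.

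All 14 respiratory chain genes measured were higher in MPB, with a median of 0.19 and 4 at an unadjusted p under 0.05. These were the ATP synthase subunit Atp5po, the electron carrier Cycs, Cox6c of complex IV and Ndufa9 of complex I. Atp5po stood at 9.67, 9.03, 9.57, 10.34 and 9.46 in MPB glands, against 8.69, 8.94 and 9.03 in TCS glands and 8.97, 9.04, 9.08, 9.69 and 9.63 in OIL glands. MPB gland 2 lay barely above the highest TCS gland, the others clearly so, and the difference was 0.51 ± 0.20 (SE) (adjusted p = 0.45). With MPB glands 1, 3 and 4 left out the list's median was 0.00653, with 8 members above 0 and 6 below. Pdk4, the kinase that closes pyruvate's entry to the mitochondrion, was the gene of the fatty acid oxidation list lying farthest below 0, at 9.68, 11.90, 8.63, 7.94 and 11.79 in MPB glands, against 11.82, 12.18 and 12.31 in TCS glands and 11.77, 12.58, 12.54, 11.74 and 11.88 in OIL glands. MPB glands 1, 3 and 4 were the 3 lowest of the 13, and the difference was -1.98 ± 0.81 (SE) (adjusted p = 0.45).

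**Figure D3:**
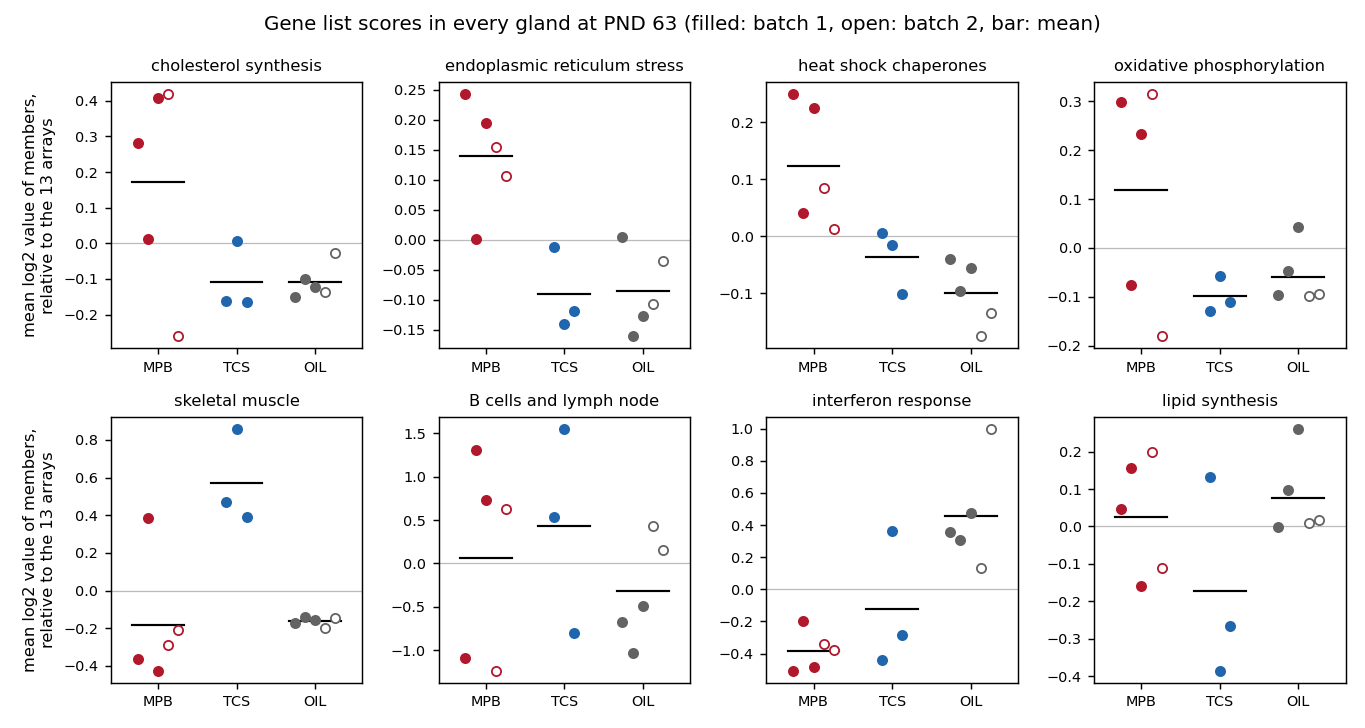
List scores (y axes, log2 units: each member centred on its 13-array mean, then averaged across members) in each MPB, TCS and OIL gland, with filled points for batch 1, open points for batch 2 and bars for group means. Skeletal muscle scores are 0.39 to 0.86 in TCS glands, and 4 of 5 MPB glands lie at -0.43 to -0.21 with gland 2 at 0.39.

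Luminal epithelial markers lay mostly above 0, with the keratins near it. Of 19 luminal markers 16 were higher and 3 lower, with a median of 0.15, and 5 had an unadjusted p under 0.05: Prom1, Cldn3, Gata3, Elf5 and Ehf. Elf5, the STAT5-linked factor of alveolar progenitors, stood at 11.56, 10.96, 11.52, 11.92 and 11.05 in MPB glands, against 10.77, 10.81 and 11.01 in TCS glands and 10.87, 11.10, 11.12, 11.25 and 11.37 in OIL glands. The groups overlapped, and the difference was 0.45 ± 0.19 (SE) (adjusted p = 0.45). Krt8 differed by 0.03 ± 0.16 (SE) and Krt18 by 0.08 ± 0.16 (SE). The list's median was 0.04 without MPB glands 1, 3 and 4, with 1 member at an unadjusted p under 0.05, and 0.02 without TCS gland 1. Among the 12 prolactin and STAT5 genes, 8 were higher and 4 lower, with Stat5a, Id2 and Elf5 at a p under 0.05 and a median of 0.05, while Prlr, the receptor, differed by 0.21 ± 0.17 (SE). That list's median was 0.10 without MPB glands 1, 3 and 4, with 11 members higher and 1 lower. Milk genes split, as 11 of 18 were higher and 7 lower with a median of 0.03, and Csn1s2a, a casein, stood at 12.57, 7.41, 12.35, 12.74 and 7.82 in MPB glands, against 7.37, 10.94 and 12.33 in TCS glands and 7.20, 11.77, 12.16, 11.51 and 7.29 in OIL glands. Casein was high in 3 MPB glands, 2 TCS glands and 3 OIL glands and low in the rest, a split within every group. The 3 MPB glands were glands 1, 3 and 4, those that stood apart, so fits without them hold no MPB gland of high casein. The milk list had 5 members higher and 13 lower, with a median of -0.15, when MPB glands 1, 3 and 4 were left out, and a median of -0.18 without TCS gland 1.

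Estrogen and progesterone response genes split evenly, and thyroid and xenobiotic response genes lay more often below 0. Of all genes, 56% lay below 0. Of 16 estrogen and progesterone response genes 8 were higher and 8 lower, with a median of 0.00414, and Wnt4, Xbp1 and the cell cycle gene Ccnd1 had an unadjusted p under 0.05. Pgr, the progesterone receptor, differed by 0.69 ± 0.82 (SE) and Areg, the estrogen-induced growth factor of duct elongation, by 0.54 ± 0.47 (SE). Of 11 thyroid hormone genes 4 were higher and 7 lower, with a median of -0.05 and Thrsp alone under that level. The activating deiodinases Dio1 and Dio2 differed by -0.10 ± 0.15 (SE) and 0.08 ± 0.17 (SE), and the hormone receptor Thrb by -0.09 ± 0.12 (SE). Among 16 cytochrome P450 and receptor genes 4 were higher and 12 lower, with a median of -0.10. Nr1i2, the pregnane X receptor, differed by -0.27 ± 0.10 (SE) and Arnt, the partner of the dioxin receptor, by -0.21 ± 0.09 (SE), while Cyp1a1, that receptor's marker target, differed by -0.14 ± 0.08 (SE). None of these passed the adjustment. With MPB glands 1, 3 and 4 left out, the medians of the 3 lists were 0.01, -0.01 and 0.00314, and the P450 list had 8 members higher and 8 lower.

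Skeletal muscle genes made up the list lying farthest below 0. All 12 measured members were lower in MPB, with a median of -0.52 and 10 at an unadjusted p under 0.05, and 0 past the adjustment. Myl1, a fast myosin light chain, stood at 7.11, 9.16, 7.43, 7.60 and 7.46 in MPB glands, against 9.14, 9.83 and 9.17 in TCS glands and 7.43, 7.46, 7.82, 7.25 and 7.68 in OIL glands. The TCS glands and MPB gland 2 were at 9.14 or above, and the other 4 MPB glands and all OIL glands were at 7.82 or below. The difference was -1.54 ± 0.38 (SE) (adjusted p = 0.45), with 0.22 for MPB and 1.76 for TCS against OIL. Ckm, muscle creatine kinase, differed by -1.11 ± 0.28 (SE) and Tnnc2, a fast troponin, by -1.06 ± 0.21 (SE). The list's median against OIL was 0.05 for MPB and 0.48 for TCS, where 9 of 12 members had an unadjusted p under 0.05. The median was -0.30 without MPB glands 1, 3 and 4, and -0.64 without MPB gland 2. With the muscle score and the B cell score of each array as covariates, 117 genes were higher and 298 lower at an unadjusted p under 0.05, in place of 1083 and 881, and the medians of the endoplasmic reticulum, heat shock, cholesterol and respiratory lists were 0.02, 0.10, 0.08 and 0.08. That of the lipid list was 0.40. The muscle score itself differed between the groups, at 0.39 to 0.86 in TCS glands and -0.43 to -0.21 in 4 of 5 MPB glands. MPB gland 2 scored 0.39. This fit therefore also takes out part of any difference between the chemicals.

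Lymphoid markers varied between glands of every group. The B cell and lymph node list scored -1.09, 1.31, 0.73, -1.24 and 0.63 in MPB glands, against 0.54, 1.55 and -0.81 in TCS glands and -0.68, -1.04, -0.49, 0.43 and 0.16 in OIL glands. MPB glands 1 and 4, of the 3 that stood apart, were the 2 lowest, and MPB gland 3 was high. All 12 members were lower in MPB, with a median of -0.39, and 0 had an unadjusted p under 0.05. Cxcl13, the chemokine that draws B cells into follicles, stood at 10.17, 12.69, 11.66, 8.15 and 12.53 in MPB glands, against 12.71, 12.27 and 11.26 in TCS glands and 13.06, 11.27, 11.91, 11.49 and 12.15 in OIL glands and differed by -0.76 ± 0.88 (SE). In batch 1 alone the list's median was -0.11, without MPB glands 1, 3 and 4 it was 0.27, and without TCS gland 2, the highest of its group, it was 0.18. The T and NK cell list had a median of -0.20 with 14 of 15 members lower, 0.04 in batch 1 alone, 0.27 without the 3 MPB glands, 0.06 without MPB gland 1 and 0.33 without TCS gland 2.

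**Figure D4:**
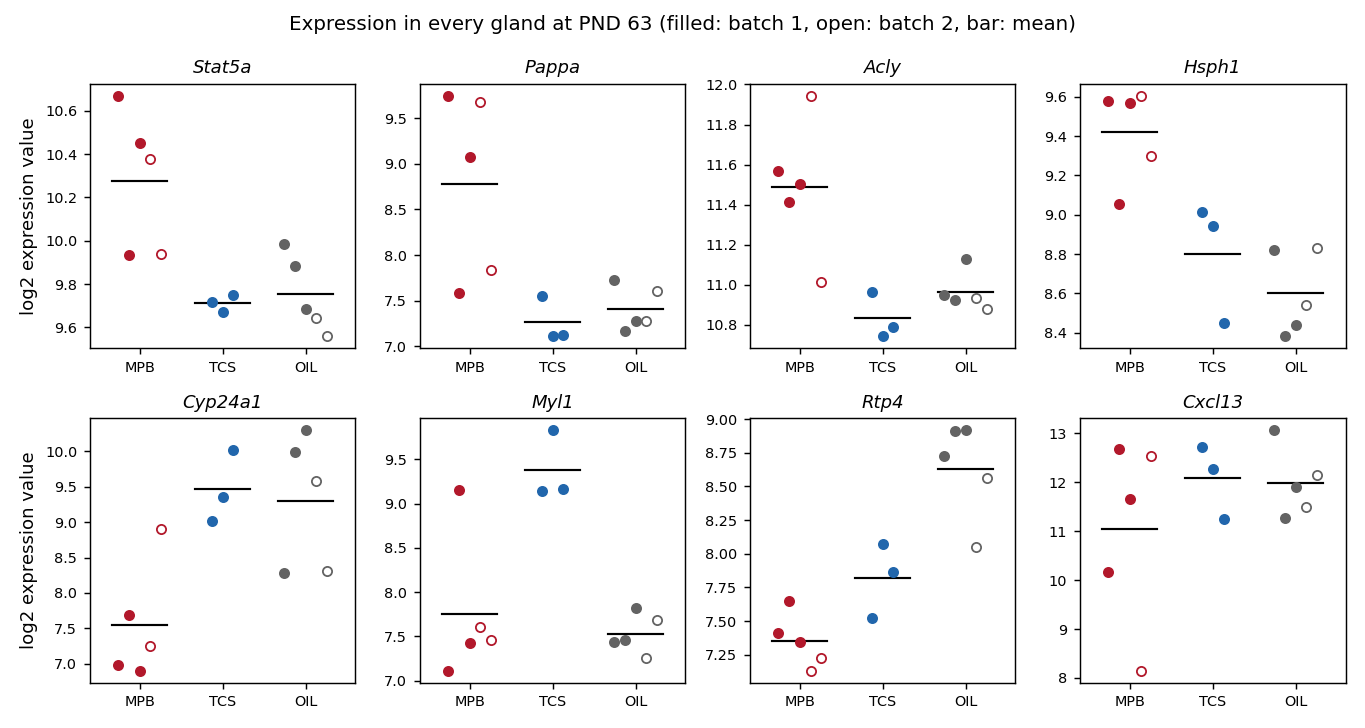
Log2 expression values (y axes) of 8 genes in each MPB, TCS and OIL gland, with filled points for batch 1, open points for batch 2 and bars for group means. Stat5a, Pappa, Acly and Hsph1 are higher and Cyp24a1 lower in every MPB gland than in every TCS gland, while Myl1 and Cxcl13 overlap. Rtp4 has its highest group mean in OIL glands, with OIL gland 4 just below TCS gland 2.

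No gene of the growth factor, nerve sheath, plasma cell or basal cell lists passed the adjustment. Of 20 growth factor ligands and receptors 5 were higher in MPB and 15 lower, with a median of -0.19, where 56% of all genes lay below 0. Without MPB glands 1, 3 and 4 the direction turned, with 11 higher, 9 lower and a median of 0.04. Hgf, the stromal signal for duct branching, differed by -0.36 ± 0.12 (SE) and Tgfa, a ligand of the epidermal growth factor receptor, by -0.28 ± 0.12 (SE), both at an unadjusted p under 0.05, while Egf itself differed by -0.21 ± 0.10 (SE) and its relative's receptor Erbb4 by 0.28 ± 0.14 (SE). The 6 Schwann cell and myelin genes had a median of -0.14, with Prx, a myelin sheath scaffold, at -0.20 ± 0.11 (SE), and the median was -0.04 without MPB glands 1, 3 and 4 and -0.03 without TCS gland 3. Of the 8 plasma cell markers 6 were higher and 2 lower, with a median of 0.23, and the 1 with an unadjusted p under 0.05 was Xbp1, also a member of the endoplasmic reticulum list. The plasma cell median was 0.06 without TCS gland 3, 0.07 without MPB gland 2, 0.08 without MPB gland 3 and 0.32 without MPB glands 1, 3 and 4. The plasma cell receptor Tnfrsf17 differed by 0.18 ± 0.17 (SE). Among 7 basal cell genes the keratin Krt14 differed by 0.40 ± 0.12 (SE), while the contractile genes Myh11 and Tagln differed by -0.57 ± 0.19 (SE) and -0.35 ± 0.14 (SE), each at an unadjusted p under 0.05. The basal list's median was 0.08, against -0.21 without MPB glands 1, 3 and 4, where 0 members had such a p, and -0.08 without TCS gland 2.

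Interferon-stimulated genes had lower fitted means than in OIL under both chemicals. By list score, TCS gland 2 at 0.36 lay within the OIL glands, which ran from 0.14 to 0.997. TCS glands 1 and 3 scored -0.44 and -0.28, and MPB glands -0.51 to -0.20. Rtp4, a chaperone of receptors that interferon induces, was the gene that fell in MPB against OIL. It stood at 7.41, 7.65, 7.34, 7.13 and 7.23 in MPB glands, against 7.52, 8.07 and 7.87 in TCS glands and 8.73, 8.91, 8.92, 8.05 and 8.56 in OIL glands. Every MPB gland was below every OIL gland, with a difference of -1.28 (adjusted p = 0.0032), against -0.98 for TCS (adjusted p = 0.49). The adjusted p for MPB was 0.063 with batch 1 alone and 0.33 without MPB glands 1, 3 and 4, with differences of -1.39 and -1.15. Without MPB gland 2, 861 of all 18166 genes passed the threshold against OIL. These held 14 of the 20 interferon genes, 5 of 15 endoplasmic reticulum genes and 4 of 11 heat shock genes. They also held 4 of 16 circadian clock genes, 3 of 16 genes of conjugation and oxidative defence, and at most 2 of any other list. All 20 interferon genes were below 0 against OIL under each chemical, with medians of -0.75 for MPB and -0.55 for TCS. Of them, 19 and 11 had an unadjusted p under 0.05, in fits that share the OIL glands. Between MPB and TCS, 19 of 20 were lower in MPB with a median of -0.28, and 1 had an unadjusted p under 0.05: Oas1a, which makes the messenger that starts RNA decay, at -0.48 ± 0.13 (SE). Irf7, the factor that amplifies the response, stood at 8.48, 8.55, 8.59, 8.69 and 8.74 in MPB glands, against 8.51, 9.54 and 8.84 in TCS glands and 9.70, 9.54, 9.84, 9.36 and 10.24 in OIL glands. The MPB glands lay close together, all OIL glands were above them, and TCS gland 2, the gland with the highest lymphoid score, was the highest TCS gland. Between MPB and TCS the list's median was -0.18 without MPB glands 1, 3 and 4, and with the 2 tissue scores as covariates it was 0.16.

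Among the other genes with the smallest p below 0 were Tspan2, a membrane scaffold of smooth muscle and nerve, Gpcpd1, a phosphodiesterase that frees glycerol phosphate, Nrap, a muscle scaffold, and Fpr1, the formyl peptide receptor of phagocytes. Mir134, Crygd, Krtap15-1, Sertm1 and Rpl10-ps13 completed the 10 with Tnnc2, and the differences of the 10 ran from -1.06 to -0.36. Fpr1, Crygd, Krtap15-1 and Rpl10-ps13 read low, with means of 4.98, 4.93, 5.36 and 4.01 over the 13 arrays. All 4 lie under the mean log2 of 6 used as a filter in 1 alternative, so little can be read from them. Tspan2, Fpr1, Crygd and Sertm1 overlapped between MPB and TCS glands. Mir134 stood at 6.37, 6.26, 6.35, 6.18 and 6.11 in MPB glands, against 6.80, 6.63 and 6.71 in TCS glands and 6.60, 6.60, 6.55, 6.81 and 6.43 in OIL glands. MPB lay below TCS without overlap, as for 2.59% of all genes, with a difference of -0.43 ± 0.10 (SE) (adjusted p = 0.45). The array reads the gene's transcript cluster and not the mature miRNA. Its mature forms are printed with those of Mir214, described later, to show what each locus encodes; RefSeq places them on GRCr8, and capitals mark the seed, bases 2 to 8, which pairs with targets.
rno-miR-134-5p (chr6:134570320-134570341, + strand): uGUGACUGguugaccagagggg
rno-miR-134-3p (chr6:134570359-134570380, + strand): cUGUGGGCcaccuagucaccaa
rno-miR-214-5p (chr13:77121656-77121672, + strand): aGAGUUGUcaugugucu
rno-miR-214-3p (chr13:77121713-77121733, + strand): aCAGCAGGcacagacaggcag
No seed is shared between the 4 forms.

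Fitting more arrays together changed the count. Both the spread and the batch term were then estimated over more arrays, so the differences moved as well as their SEs. When all 55 arrays of the 4 short exposure windows were fitted together with batch as a term, a fit added after the data were seen, 56 genes differed between MPB and TCS after PND 42-62 at an adjusted p of 0.05. Of these, 44 rose in MPB against TCS (0.242% of genes) and 12 fell (0.0661%). All 56 had an unadjusted p under 0.05 in the fit on 13 arrays and the same sign in batch 1 alone. Those fits reuse glands that selected the 56, so this is no separate support. For 53 the difference from OIL was larger in size for MPB than for TCS, and the share over all genes was not computed. The count ranged from 0 to 782 when a gland of MPB or TCS was left out, and was 1 without MPB glands 1, 3 and 4, 2 without the batch term and 0 in batch 1 alone. With the muscle and B cell scores in the fit it was 78, 53 higher and 25 lower, of which 49 were among the 56. Median SDs of genes within the 12 groups of that fit lay between 0.155, in TCS after PND 42-62, and 0.245. Single genes could vary far more in 1 group. Pappa had an SD of 1.02 in MPB and 0.25 in TCS glands after PND 42-62. Its SE was 0.47 in the fit on 13 arrays and 0.29 in the fit on 55. For such a gene the pooled SE and adjusted p can understate the spread between the glands compared. The genes described next were named after their values were seen.

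Pappa, a protease that frees insulin-like growth factors from their binding proteins, stood at 9.75, 7.59, 9.07, 9.67 and 7.83 in MPB glands, against 7.55, 7.11 and 7.13 in TCS glands and 7.72, 7.17, 7.28, 7.28 and 7.60 in OIL glands. No MPB gland overlapped TCS, glands 1, 3 and 4 lay clearly above glands 2 and 5, and the pooled difference was 1.52 ± 0.29 (SE) (adjusted p = 0.023). Phlda1, a growth factor induced gene, and Mfsd2a, the transporter of lysophospholipid docosahexaenoate, rose by 1.34 ± 0.29 (SE) and 1.29 ± 0.29 (SE) in the same fit. Srm, spermidine synthase, rose by 0.85 ± 0.19 (SE). Nolc1, a nucleolar phosphoprotein, stood at 9.70, 8.66, 9.49, 9.10 and 8.66 in MPB glands, against 8.60, 8.59 and 8.49 in TCS glands and 8.48, 8.49, 8.39, 8.32 and 8.28 in OIL glands. It did not overlap between MPB and TCS, and its pooled difference was 0.66 ± 0.16 (SE) (adjusted p = 0.048). Mrps18b, of the mitochondrial ribosome, stood at 9.66, 8.74, 9.47, 9.29 and 9.15 in MPB glands, against 8.57, 8.63 and 8.68 in TCS glands and 8.78, 8.85, 8.73, 8.64 and 8.81 in OIL glands, also without overlap, with a pooled difference of 0.67 ± 0.13 (SE) (adjusted p = 0.023). The replication genes Mcm2 and Pcna were also highest in MPB glands 1, 3 and 4 and passed in neither fit. Mcm2 stood at 10.81, 9.06, 10.81, 10.25 and 8.30 in MPB glands, against 8.65, 9.33 and 9.10 in TCS glands and 8.44, 8.94, 8.99, 8.70 and 8.17 in OIL glands, the 3 highest again being MPB glands 1, 3 and 4. Of the 23 cell cycle genes 10 were higher and 13 lower, with a median of -0.03. Without MPB glands 1, 3 and 4 all 23 were lower, with a median of -0.53, and the median was -0.54 without TCS gland 1, 0.22 without TCS gland 2 and 0.25 without TCS gland 3.

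Cyp24a1, the enzyme that inactivates vitamin D, fell furthest. It stood at 6.98, 7.68, 6.90, 7.26 and 8.90 in MPB glands, against 9.01, 9.36 and 10.02 in TCS glands and 8.29, 9.99, 10.30, 9.58 and 8.32 in OIL glands. Every MPB gland lay below every TCS gland. Every MPB gland other than gland 5 also lay below every OIL gland, and MPB gland 5 lay within the OIL range. In the fit on these glands alone, the difference from OIL was -1.75 for MPB and 0.23 for TCS. The pooled difference between MPB and TCS was -1.94 ± 0.36 (SE) (adjusted p = 0.023). Itga1, a collagen receptor, and Syt2, a vesicle calcium sensor, fell by 0.66 and 0.91 on the log2 scale in that fit, and neither overlapped between MPB and TCS. Mir214 stood at 7.47, 7.85, 7.42, 7.82 and 7.98 in MPB glands, against 8.19, 7.93 and 8.08 in TCS glands and 8.01, 7.92, 8.01, 8.27 and 8.13 in OIL glands. Those groups overlapped through MPB gland 5, and the pooled difference was -0.44 ± 0.10 (SE) (adjusted p = 0.036).

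The same contrast after the other short windows held no gene past the threshold in that fit: 0 after gestation days 1-20, 0 after PND 1-20 and 0 after PND 21-41. Pappa differed by 0.16, 0.01 and -0.24 in those windows, and Cyp24a1 by 0.000794, 0.14 and -0.59. No gene's difference after PND 42-62 was shown to depart from those of the other windows. The F test over the 3 differences gave 0 genes, a smallest adjusted p of 0.53, and 1291 genes at an unadjusted p under 0.05 (7.11%). With the 36 batch 1 arrays alone it gave 596 of the 18166 genes tested. There the contrast after gestation days 1-20 itself held 2782 genes, and 1613 genes differed between that window and PND 42-62, against 0 for both other windows. The 596 included 11 of the 12 skeletal muscle genes and at most 2 members of any other list. In the fit on 55 arrays the muscle list's median was 1.16 after gestation days 1-20 and -0.02 after PND 1-20. It was 0.72 after PND 21-41 and -0.73 after PND 42-62. The endoplasmic reticulum list had medians of 0.07, -0.00129, -0.11 and 0.31 over the same windows, and cholesterol synthesis 0.00517, 0.03, 0.14 and 0.33.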

How the data were processed

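RNA of 13 mammary glands (5 MPB, 3 TCS and 5 OIL, PND 63) was hybridised to 1 Affymetrix array each, from 250 ng of RNA with an integrity number of at least 7, per the labels' protocols. The authors summarised each transcript cluster by robust multi-array averaging in Expression Console and deposited the result on the log2 scale, per the submitters' processing notes; versions and genome build are not stated there. Of 36685 clusters, 18511 had 1 gene symbol, 575 several and 17599 none listed, and 18166 genes were tested, named through GEO's platform annotation. The number of arrays limits the precision.

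Differences between groups were fitted with limma 3.58.1 in R 4.3.3, with batch as a term and Benjamini-Hochberg adjustment over all genes, and are log2 differences with moderated SE. A second limma fit estimated the spread and the batch term over 55 arrays. Scripts were tested on simulated data. Groups came from the labels. Genes named by rule are the 10 of smallest p in each direction when none passed, up to 4 members of the lists whose medians lay farthest from that of all genes, and genes past the threshold against OIL. Other genes described, such as Pdk4, Hspa4l, Csn1s2a, Elf5, Krt14, Myh11, Nr1i2 and Mcm2, fall outside this rule and were described with their values known. The alternatives were not computed for each of those genes. The members, the 43 lists (560 of 635 members measured) and this rule were chosen with earlier results of these data known. Alternatives changed the batch term, arrays, normalization, filter and covariates. Promoters and miRNAs were matched by symbol in RefSeq, GRCr8.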

Additional observations from a re-analysis of the deposited data

Results flagged for a closer look

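In all, 7 of 156 sets of 5 glands had a gland far from the other 4, where chance alone gives about 7.8, with a gap of more than 0.71 of the set's range. MPB gland 2 stood above the other MPB glands for the muscle genes Myl1 (9.16) and Ckm (8.23), and its skeletal muscle score was 0.39. OIL gland 4 stood apart for Actn3, a muscle actin crosslinker, at 7.02. OIL gland 3 stood apart for Acly at 11.13 and for Mbp, a myelin protein, at 8.98, and OIL gland 1 had a Schwann cell score of 0.27. The cause was not tested.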

How the results depend on the processing

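No paired analysis was possible because the replicate numbers follow accession order and the labels share no number between groups. The count of 0 genes between MPB and TCS held under each other setting tried, except 8 without MPB gland 2 (leaving out 1 gland gave 0 to 8), and 1964 genes had an unadjusted p under 0.05. Between MPB and OIL the count of 1 became 0 in batch 1 alone, 0 without MPB glands 1, 3 and 4, and 4 with the scores of muscle and B cell markers in the fit, and ranged from 1 to 861 with 1 gland left out (861 without MPB gland 2, 8 without OIL gland 4). The window F test gave 596 genes in batch 1 alone, in place of 0, and 0 to 22 with 1 gland left out. The 56 genes of the pooled fit became 2 with no batch term, 0 in batch 1 alone, 126 among genes with a mean log2 of at least 6, 78 with the 2 marker scores in the fit, and 1 without MPB glands 1, 3 and 4, with 0 to 782 when 1 gland was left out. All 56 kept their sign in each setting that tested them, which is no separate support because the settings share glands.

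Without MPB gland 2, Tnnc2 (-1.27), Myl1 (-2.01) and Ckm (-1.44) passed the threshold. Rtp4 against OIL no longer passed in batch 1 alone (-1.39) or without MPB glands 1, 3 and 4 (-1.15). With those 2 scores in the fit the MPB minus TCS difference turned sign for Myl1 (0.051), Acacb (0.22), Rtp4 (0.14), Dnaja1 (-0.011), Sdc1 (-0.15), Cd22 (0.095), Cd79a (0.15), Klrd1 (0.23), Il7r (0.10) and Cd28 (0.15). Without MPB glands 1, 3 and 4 it turned for Acacb (0.012), Sc5d (-0.020), Idi1 (-0.088), Sdc1 (-0.069), Cxcl13 (0.64), Cd22 (0.19), Cd79a (0.064), Cd4 (0.13), Klrd1 (0.17), Il7r (0.29) and Cd28 (0.27). It turned for Nsdhl with no batch term (-0.00943), and for Cd28 in batch 1 alone and in MPB and TCS glands alone (0.042 each). With 1 gland left out, Cd22 ranged from -1.004 to 0.076, Cd79a from -0.88 to 0.13, Klrd1 from -0.59 to 0.14, Il7r from -1.01 to 0.22 and Cd28 from -1.13 to 0.31, positive without TCS gland 2. Myl1, Cd22 and Cd79a belong to the lists behind the 2 scores, so their own values entered the covariates. The causes were not tested. Leaving out muscle-rich glands, those scoring over 2 above the median gland, gave no value because no gland exceeded that. With 3 TCS glands in 1 batch, a difference smaller than about 0.272 would lie within the median gene's 95% interval.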
